A study of Mus musculus with 7 samples.

Results

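Gene deserts are long stretches of a chromosome without protein-coding genes, and 2755 of 26649 Fos-bound regions of the mouse hippocampus after kainic acid lay deep inside such stretches (10.3%, 95% Clopper-Pearson interval 9.98 to 10.7). The regions came from chromatin immunoprecipitation followed by sequencing (ChIP-seq) with a monoclonal antibody against Fos. Overlapping peaks of 3 kainic acid libraries were merged, and a region on chromosomes 1 to 19 was kept where at least 2 of the 3 peak lists had a peak in it. A region was placed in a desert where its summit, the median of the peak summits in it, was more than 100 kb from the span of any protein-coding gene. The desert regions were thus chosen by measured values, namely the presence of peaks in these lists, so their folds, list counts and positions are given as a description without a test. The count depends on the lists: it was 1408 without replicate 2 and 1555 without replicate 3, when both remaining lists were required. The remaining regions comprised 6867 between genes but within 100 kb of one, and 17027 inside a protein-coding gene.

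All mice were wild-type C57BL/6J animals of 2 months. The kainic acid group received 10 mg/kg into the peritoneum in 2 injections 30 min apart and was taken at seizure level 4, 1 h after the first injection, and the control group received saline. Each group had 3 libraries, and 1 input library had no list used here. The sources used here do not state how many animals a library holds, so the spread between libraries may be technical. The tissue was whole hippocampus, in which neurons, glia and vessel cells are mixed, and peak lists hold no expression values with which its cell types could be checked. No read totals come with the lists, so depth is unknown. On chromosomes 1 to 19 there were 14890 peaks in kainic acid replicate 1, 62620 in replicate 2 and 29425 in replicate 3, against 4, 3258 and 0 in the saline lists.

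Fos is made within minutes of strong neuronal activity and pairs with a Jun protein to form AP-1, a transcription factor that binds short palindrome-like DNA sites. Most AP-1 sites used in neurons are enhancers away from promoters, and an enhancer can act on a gene over long distances through folding of the chromatin. Long gene deserts in mammals often lie beside genes for developmental transcription factors, adhesion molecules and synaptic receptors, and hold distal enhancers of those genes.

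The gene table does hold non-coding genes in the deserts, and these give the places where sequence under a desert summit could be read. A desert summit fell inside the 300-base window around the annotated start of a long non-coding RNA (lncRNA) gene, from 250 bases before to 50 after it, at 18 of the 2755 regions. The 10 of these with the best mean percentile rank of fold are printed here, because they show which AP-1 letters lie under summits far from any protein-coding gene. Each stretch reaches 60 bases to each side of the summit, is shifted to stay inside the window where the summit is near its end, and is lengthened by a base where a motif would be cut. It is read 5′ to 3′ on the strand of the lncRNA, from RefSeq on GRCm38.p6. Capitals mark the AP-1 sequence TGACTCA or its reverse complement TGAGTCA, and the related sequence TGACGTCA, which is its own reverse complement. The spellings do not overlap one another within a match.
Gm30092, chr4:17636226-17636346, minus strand: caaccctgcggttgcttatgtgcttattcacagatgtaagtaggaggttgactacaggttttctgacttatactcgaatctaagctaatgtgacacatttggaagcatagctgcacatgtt
Gm30986, chr2:131744243-131744363, plus strand: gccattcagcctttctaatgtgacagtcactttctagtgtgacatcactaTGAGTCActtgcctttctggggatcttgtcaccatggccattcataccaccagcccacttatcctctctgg
Morrbid, chr2:128429302-128429422, minus strand: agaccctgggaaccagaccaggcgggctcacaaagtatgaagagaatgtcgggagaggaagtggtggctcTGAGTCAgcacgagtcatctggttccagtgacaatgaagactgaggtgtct
Gm30214, chr14:53039545-53039665, minus strand: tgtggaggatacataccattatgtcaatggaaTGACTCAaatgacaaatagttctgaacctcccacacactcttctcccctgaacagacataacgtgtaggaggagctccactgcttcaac
Gm40436, chr12:70590449-70590569, plus strand: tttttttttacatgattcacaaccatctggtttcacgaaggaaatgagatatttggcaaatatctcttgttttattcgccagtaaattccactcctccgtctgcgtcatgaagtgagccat
Gm32865, chr16:87128449-87128570, minus strand: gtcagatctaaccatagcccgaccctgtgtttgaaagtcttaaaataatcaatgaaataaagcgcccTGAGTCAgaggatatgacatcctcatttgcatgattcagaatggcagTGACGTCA
Gm30657, chr5:118413646-118413767, minus strand: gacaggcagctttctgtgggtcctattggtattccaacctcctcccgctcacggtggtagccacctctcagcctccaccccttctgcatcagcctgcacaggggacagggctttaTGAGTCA
Gm5086, chr13:97559800-97559920, plus strand: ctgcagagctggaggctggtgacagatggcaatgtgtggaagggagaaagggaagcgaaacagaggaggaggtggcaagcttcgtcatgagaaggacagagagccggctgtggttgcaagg
Gm11228, chr4:71131084-71131204, minus strand: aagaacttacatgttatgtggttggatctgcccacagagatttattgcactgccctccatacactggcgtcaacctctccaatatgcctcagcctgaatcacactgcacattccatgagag
Gm4258, chr1:137898217-137898337, plus strand: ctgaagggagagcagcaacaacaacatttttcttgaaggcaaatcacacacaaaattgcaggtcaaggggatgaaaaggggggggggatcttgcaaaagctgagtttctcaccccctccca

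Of the 18 windows with a desert summit, 9 held TGACTCA or TGAGTCA (50.0%, interval 26.0 to 74.0). Among windows with the summit of a region outside the deserts, 166 of 362 did (45.9%, interval 40.6 to 51.1). The share over all 31396 start windows on chromosomes 1 to 19 was 5.26%. The share was 5.81% in the 1996 lncRNA windows that lay over 100 kb from a protein-coding gene and held no region summit, 116 of which had the sequence. The share in windows with a desert summit was thus higher than in desert lncRNA windows of the same length without a region summit. The latter were not limited to the deserts of the 18 summits. The interval of the desert share overlapped that of other Fos regions. In the stretch of Morrbid, a lncRNA gene between Bcl2l11 and Spdye4c, the middle of TGAGTCA lay 3 bases from the summit, and in that of Gm30986, between Adra1d and Erv3, it lay 7 bases from it. The stretches of Gm30092, Gm40436, Gm5086, Gm11228 and Gm4258 held none of these spellings. A match is a string of letters and does not show that the site is bound, and only start windows could be searched.

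Deserts were thinly filled with Fos peaks compared with the rest of the genome, and the density was lower the farther a position lay from genes. The territory more than 100 kb from a protein-coding gene made up 27.3% of the 2398 Mb bounded by such genes and held 10.3% of the regions. The density was 4.21 regions per Mb there and 11.1 per Mb over the whole span. In each kainic acid list the density of peaks, relative to that list's own density over the span, was lower in each successive distance class from 100 kb outward. At 100 to 200 kb from a gene it was 0.597 in replicate 1, 0.515 in replicate 2 and 0.542 in replicate 3, a mean of 0.551 ± 0.0416 (SD, n = 3). Beyond 1000 kb it was 0.194, 0.0881 and 0.137, a mean of 0.139 ± 0.0529. Every list was thus lower beyond 1000 kb than any list at 100 to 200 kb, while neighbouring classes beyond 500 kb overlapped. Replicate 2, the longest list, had the lowest value in every class over 100 kb and replicate 1, the shortest, the highest. By distance, 1227 desert regions lay at 100 to 200 kb, 1108 at 200 to 500 kb, 321 at 500 to 1000 kb and 98 beyond 1000 kb. Mappability of the deserts was not tested.

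**Figure D1:**
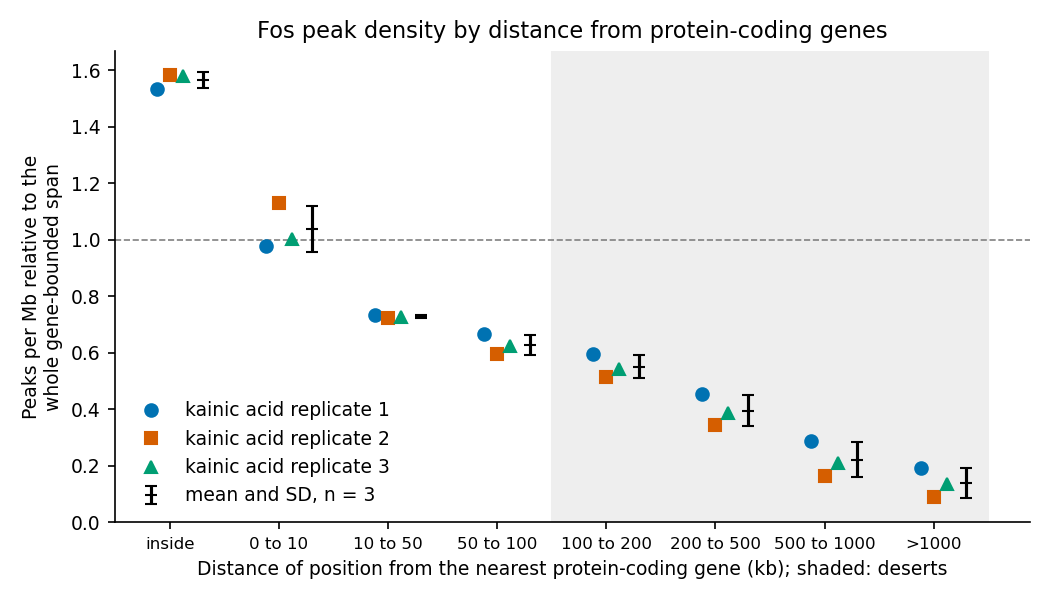
Peaks per Mb in each class of distance from the nearest protein-coding gene (kb, horizontal axis), divided by the peaks per Mb of the same list over the whole span bounded by such genes (vertical axis), with 1 point per kainic acid library and the mean and SD of the 3. The points fall from 1.53 to 1.58 inside genes to 0.0881 to 0.194 beyond 1000 kb, and the shaded classes are the deserts.

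Desert peaks were called in large numbers after kainic acid and scarcely with saline. Single peaks with their own summit in a desert numbered 1772, 5684 and 2993 in kainic acid replicates 1, 2 and 3, and 0, 24 and 0 in saline replicates 1, 2 and 3. The groups did not overlap. As log10(number + 1), the mean was 3.49 ± 0.253 (SD, n = 3) with kainic acid and 0.466 ± 0.807 (n = 3) with saline, a difference of 3.03. An exact two-sided permutation of the library labels returned p = 0.1, which is the lowest that the design can reach. The total number of peaks differed in the same direction, and in saline replicate 2, the only saline list with more than 4 peaks, the desert share of peaks was 0.737% (interval 0.473 to 1.09), against 11.9%, 9.08% and 10.2% of the kainic acid peaks.

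Saline peaks met only 7 desert regions (0.254%, interval 0.102 to 0.523), all of them from saline replicate 2. Over all regions the share with a saline peak was 2.02%. The best ranked of the 7 lay on chromosome 6 between Emp1 and Grin2b, which encodes an NMDA receptor subunit, and its kainic acid folds were 6.72, 16.5 and 9.57 in replicate order. The next lay on chromosome 5 between Med13l and the transcription factor gene Tbx3, with folds of 7.93, 16.6 and 7.02. The others named by rank lay between Fbxw7 and Gatb on chromosome 3, Rps24 and Zmiz1 on chromosome 14, and Abhd5 and Topaz1 on chromosome 9. Their mean percentile ranks were 8.56, 15.1 and 21.4. The other 2, between Spring1 and Med13l and between Jun and Fggy, ranked at 82.8 and 90.3, so the 7 ran from strong to weak regions, with a median of 15.1.

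Desert regions ranked in the middle of each list by fold. The deposited fold is a ratio of a peak to its local background within 1 library, so each region received a percentile rank within each list, where 0 is the highest fold. The median fold of desert regions was 4.56 in replicate 1 (1604 regions with a peak there), 5.86 in replicate 2 (2700 regions) and 4.32 in replicate 3 (2560 regions). For all other regions it was 4.47, 5.91 and 4.17. The median percentile ranks of desert regions were 47.1, 50.6 and 45.8, a mean of 47.8 ± 2.44 (SD over the 3 lists). The same mean was 46.8 ± 1.35 for regions between genes within 100 kb of one and 51.5 ± 0.796 for regions inside genes. The desert value differed from that of the nearer intergenic regions by less than the spread between lists. Against regions inside genes the desert median was the better rank in all 3 lists, the latter being 52.0, 51.9 and 50.6 there. By the deposited −log10 q in place of the fold, the desert mean was 50.7 ± 2.03, that of nearer intergenic regions 46.6 ± 1.62 and that of regions inside genes 51.6 ± 0.643. By this measure the desert regions were nearer to those inside genes, so the order of the classes depended on the ranking value.

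**Figure D2:**
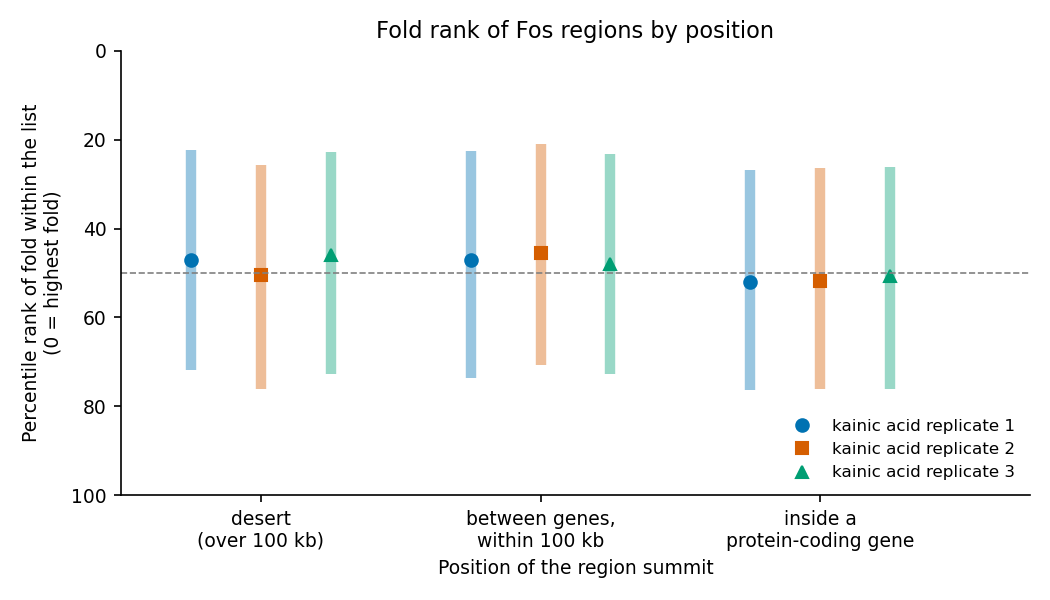
Percentile rank of the deposited fold within each kainic acid list (vertical axis, 0 at the top is the highest fold) for desert regions, other intergenic regions and regions inside genes; points are medians and bars run from the first to the third quartile. The 9 medians lie between 45.4 and 52.0, and the bars overlap almost entirely.

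The share of desert regions found in every list was slightly above that of all regions. A peak in all 3 lists was present at 1354 of 2755 (49.1%, interval 47.3 to 51.0), where the share over all regions was 44.5%. For nearer intergenic regions it was 45.6%, and for those of them at 50 to 100 kb from a gene it was 47.8%, so the desert limit did not mark a step. By distance the share was 47.8% at 100 to 200 kb, 48.9% at 200 to 500 kb, 52.3% at 500 to 1000 kb and 58.2% beyond 1000 kb, where only 98 regions were counted. Of those in 2 lists, 1151 were in replicates 2 and 3, 195 in replicates 1 and 2, and 55 in replicates 1 and 3. The fold of desert regions correlated between lists with a Spearman rho of 0.569 for replicates 1 and 2 (1549 regions), 0.606 for replicates 1 and 3 (1409 regions) and 0.602 for replicates 2 and 3 (2505 regions). These are descriptions across regions, which share libraries and are not independent replicates. Desert regions were 655 bp wide at the median, against 690 bp for other regions. The strongest summits of the 3 lists lay within 116 bp of each other at the median desert region in all 3 lists, and within 123 bp elsewhere.

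A small number of desert regions stood among the strongest Fos regions of the genome. Of the 11853 regions in all 3 lists, the best 100 by mean percentile rank are 0.844%, and 13 of them were desert regions, which is 0.960% of the 1354. The best 500 are 4.22%, and 61 were desert regions, or 4.51%. These shares are close to the background, so desert regions were about as frequent among the top ranks as among all regions in 3 lists.

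The strongest desert region of all lay on chromosome 18 in the 3152 kb between Cdh2, which encodes the synaptic adhesion molecule N-cadherin, and Dsc3, a desmosomal cadherin gene. Its fold was 22.2 in replicate 1, 36.4 in replicate 2 and 18.3 in replicate 3, each the highest of any desert region in its list, and it ranked 7 among the 11853 regions. It stood at chr18:17999270-18000151, 1190 kb from Cdh2 and 1961 kb from Dsc3, and the next Fos region was 1086 kb away. A further strong region lay on the other side of Cdh2, 170 kb from it towards Chst9, with folds of 18.2, 20.5 and 17.1. Cdh2 thus had 1 of the 12 best desert regions on each side, and its 2 deserts held 10 regions together, 7 of them in all 3 lists.

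On chromosome 3 the region at chr3:120786059-120787422 had folds of 16.7, 33.1 and 17.6 and ranked 9 among regions in all 3 lists. It lay 369 kb from Rwdd3 and 1002 kb from Ptbp2, which encodes a neuronal splicing regulator, inside the lncRNA gene 6530403H02Rik. That lncRNA gene held 5 desert summits, all in 3 lists. Another region of chromosome 3, at chr3:56961723-56963382 between Nbea, a gene for a synaptic membrane trafficking protein, and Tm4sf1, had folds of 18.6, 28.3 and 16.0. On chromosome 4 the region between Tusc1 and Caap1, inside the lncRNA gene Gm12648, had folds of 17.8, 28.3 and 16.5. All of these regions were near the top of every list, with mean percentile ranks of 0.0959, 0.124 and 0.133.

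The fifth region stood almost exactly midway between its bounding genes. It lay at chr2:8627903-8629171 in the desert between Celf2, encoding an RNA-binding protein of neurons, and the transcription factor gene Gata3, 1232 kb from the former and 1228 kb from the latter. Its folds were 16.1, 25.7 and 15.5. The desert held 14 regions, 10 of them nearer Celf2. Beside Spock3, encoding a brain proteoglycan, and Anxa10 the folds were 16.0, 23.2 and 13.3. Between Gm6569 and Adgrb1, encoding an adhesion receptor of the brain, they were 12.2, 31.3 and 14.9, the widest spread among the 12.

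The last 4 of the 12 lay beside genes of diverse function. Folds were 13.9, 22.0 and 12.3 between Sim1, a transcription factor gene, and Lilr4b. They were 11.1, 25.7 and 14.3 between the proliferation gene Mki67 and the DNA repair gene Mgmt. Between Olfm4 and the protocadherin gene Pcdh17, in a desert of 4420 kb, they were 14.0, 19.9 and 12.3, with the summit 105 kb from Olfm4. Between Gm14461 and the ubiquitin-conjugating enzyme gene Ube2e3 they were 14.5, 18.3 and 13.6. None of the 12 had a saline peak, and in each of the 12 the fold was highest in replicate 2.

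**Figure D3:**
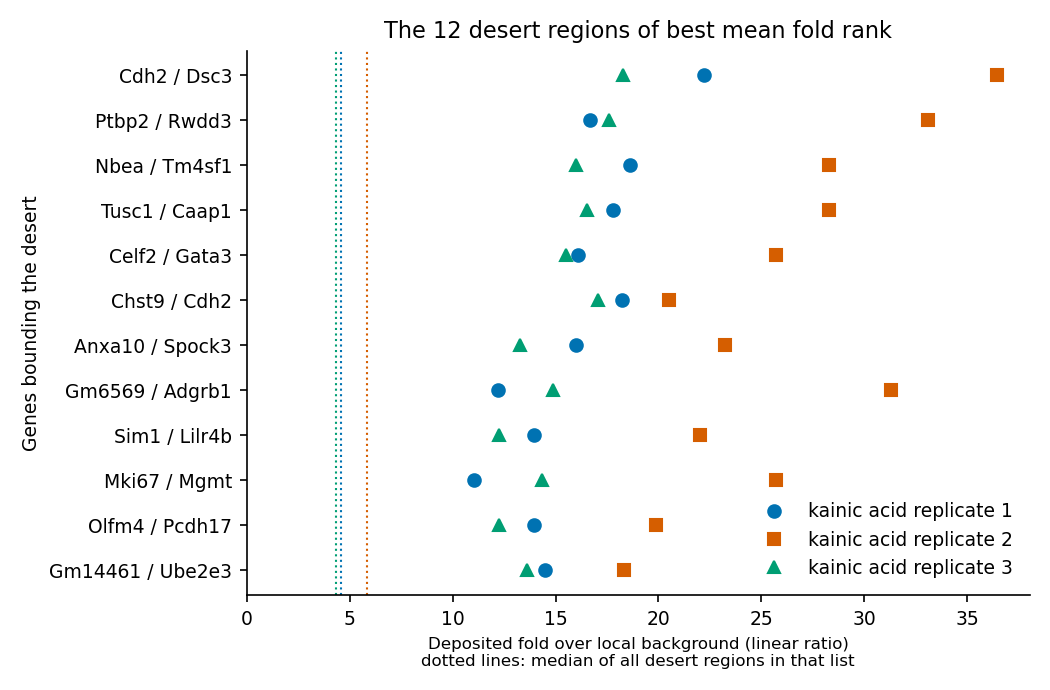
Deposited fold over local background (horizontal axis, linear ratio) of the 12 desert regions with the best mean percentile rank among those in all 3 lists, 1 row per region named by the genes on both sides of its desert, with 1 point per kainic acid library. Folds run from 11.1 to 36.4, against medians over all desert regions of 4.56, 5.86 and 4.32 in replicates 1, 2 and 3 (dotted lines).

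Regions at the edge of the 100 kb limit were ordinary in fold. The 3 desert regions nearest the limit were 100.01 kb from Hs2st1, 100.2 kb from Lcorl and 100.2 kb from Slc45a1, with mean percentile ranks of 81.5, 39.8 and 52.8. The 3 regions just short of it were 99.7 kb from D430019H16Rik, 99.7 kb from Lhx5 and 99.8 kb from Rnf144a, with ranks of 65.3, 34.6 and 27.3. At the other extreme, the farthest region lay 2210 kb from the nearest gene, in the 4511 kb of chromosome 18 between Celf4, an RNA-binding protein gene, and Pik3c3. It had a fold of 4.67 in replicate 1 and 2.98 in replicate 3 and was absent from the list of replicate 2. The same desert held the fifth farthest, at 1927 kb, with folds of 4.45, 7.73 and 4.51. The others were 2137 kb away between the adhesion genes Cntnap5b and Cdh20 and 1957 kb away between Slc39a10 and Tmeff2, both on chromosome 1, and 1934 kb away between Olfm4 and Pcdh17. Among these 5, the last had the best mean percentile rank, 13.8, and the Cntnap5b region the poorest, 84.7.

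Desert regions lay farther from the next region than other Fos regions did. They also lay in territory of lower density, with 4.21 regions per Mb against 17.3 inside genes. The shares below are not adjusted for density, and clustering relative to density was not tested. Another region lay within 10 kb of 796 desert regions (28.9%, interval 27.2 to 30.6), where the share over all regions was 44.6%. Without replicate 2 the desert share was 18.6%. It was 40.4% in the full set for nearer intergenic regions and 48.8% for regions inside genes. The median distance to the next region was 32.0 kb for desert regions and 11.6 kb for the others. No other region lay within 100 kb of 671 desert regions (24.4%), against 6.44% of the others. Chains of neighbours no more than 10 kb apart reached 3 or more members for 282 desert regions (10.2%, against 21.7% of all regions) and 5 or more for 48 (1.74% against 6.69%). Chains of 10 or more held 24 desert regions (0.871%), close to the 0.904% of all regions and above the 0.0874% of nearer intergenic regions. All 24 lay in 1 desert, between Klf14 and Mkln1, which held 31 regions in the full set and 11 without replicate 2.

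The few dense chains lay in few deserts. Only 6 of the 288 chains of 5 or more regions consisted of desert regions alone. Of these, 2 chains of 12 regions each lay between Klf14 and Mkln1 and spanned 51.6 and 55.0 kb. A pair of chains, with 6 regions over 25.9 kb and 5 over 14.2 kb, lay between Enc1 and Arhgef28. The last 2, with 5 regions each, lay between Ndfip2 and Spry2 over 19.3 kb and between Adra1d and Erv3 over 19.9 kb.

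Desert regions were spread unevenly over the deserts. Protein-coding genes on chromosomes 1 to 19 were separated by 1376 gaps longer than 200 kb, the shortest gap that can hold a desert position, and 1 desert region lay beyond the outermost gene of a chromosome. A desert region was present in 761 of these deserts, or 55.3%. A single region was found in 233 deserts, 2 to 4 in 337, 5 to 9 in 141 and 10 or more in 50. Those 50 held 676 regions (24.5%), and 149 deserts (10.8%) held 50% of all desert regions. Deserts with a region were 650 kb long at the median and those without one 283 kb. Across deserts the number of regions correlated with the length available to them with a Spearman rho of 0.598, a description over deserts of 1 genome.

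**Figure D4:**
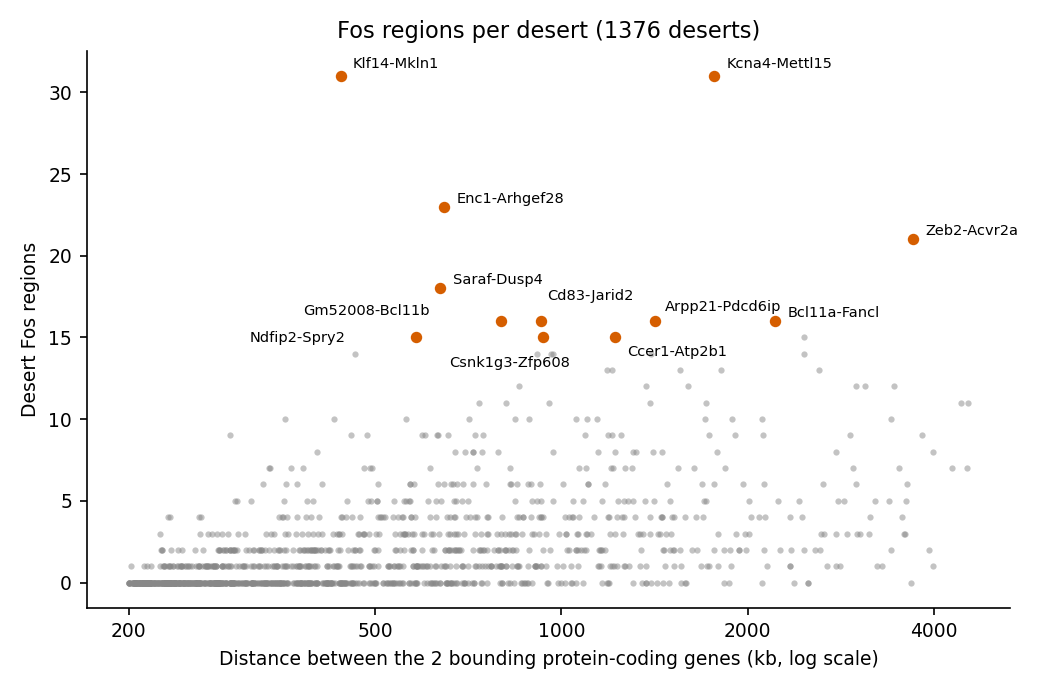
Number of desert Fos regions (vertical axis) against the distance between the 2 bounding protein-coding genes (horizontal axis, kb, log scale) for 1376 deserts; the 12 fullest are marked in orange and named by their bounding genes. The deserts Klf14-Mkln1 and Kcna4-Mettl15 hold 31 regions each, at lengths of 440 and 1765 kb.

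Among deserts with 5 or more regions, the densest was that between Klf14, a Krüppel-like factor gene, and Mkln1, encoding muskelin, a protein of receptor trafficking in neurons, at chr6:30958991-31398827. It held 31 regions, or 129 per Mb of the territory more than 100 kb from both genes, where all deserts together held 4.21 per Mb. Of the 31 summits, 22 lay inside Lncpint, a 125 kb lncRNA gene known as a target of p53, and 8 of the 22 were in all 3 lists. Fold ranks here were modest, with a best mean percentile rank of 17.5 and a median of 64.2. The lists differed greatly in how many peaks they held in this desert, with 12 in replicate 1, 87 in replicate 2 and 37 in replicate 3, and 1 in saline replicate 2. Only 11 of the 31 regions were in all 3 lists, and 11 were left without replicate 2 and 11 without replicate 3.

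The other desert with 31 regions lay between Kcna4, which encodes the A-type potassium channel Kv1.4, and the methyltransferase gene Mettl15, at chr2:107326805-109092296. Here 21 of 31 regions were in all 3 lists, the most of any of the 12 fullest deserts, and the lists held 26, 51 and 37 peaks. The strongest region, at chr2:108022497-108025525, was 3029 bp wide and had folds of 9.61, 13.6 and 12.1. Regions were spread over 1366 kb with a median spacing of 18.9 kb, and 18 of 31 were nearer Kcna4.

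The third was the desert of 646 kb between Enc1, an actin-associated gene of neurons, and Arhgef28 on chromosome 13, with 23 regions, 8 of them in all 3 lists. Its best region had folds of 8.26, 14.9 and 8.82. The stretch printed for Gm5086 lies in this desert. The fourth, of 3697 kb between the transcription factor gene Zeb2 and the activin receptor gene Acvr2a on chromosome 2, held 21 regions, and 19 of them were nearer Zeb2. The desert between Saraf and Dusp4, a phosphatase of MAP kinases, on chromosome 8 held 18 regions, 10 in all 3 lists, with best folds of 6.67, 13.2 and 9.51, 123 kb from Dusp4.

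Several of the remaining fullest deserts bordered transcriptional regulators. The deserts beside Bcl11b and Bcl11a, zinc finger factors of forebrain neurons, held 16 regions each. In the first, 11 of 16 were nearer Bcl11b, and in the second, 6 of 16 were nearer Bcl11a and 10 nearer Fancl. Beside Bcl11b, 3 of the 16 were in all 3 lists, against 9 of 16 beside Bcl11a, where the best region had folds of 11.3, 17.1 and 8.51. Also with 16 regions, 12 nearer Cd83 and 4 nearer Jarid2, the desert between Cd83 and Jarid2, a Polycomb cofactor, had a best region with folds of 7.57, 23.4 and 9.96. Between Arpp21, a phosphoprotein gene of neurons, and Pdcd6ip, the 16 regions included 1 with folds of 6.96, 18.6 and 10.9.

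With 15 regions each followed the deserts between Ndfip2 and Spry2, an inhibitor of growth factor signalling, between Csnk1g3 and Zfp608, and between Ccer1 and Atp2b1, encoding a calcium pump of the plasma membrane. Of those beside Spry2 and Atp2b1, 12 of 15 were nearer these genes. The best region beside Atp2b1, 172 kb from it, had folds of 11.3, 16.7 and 9.14. The desert between Manea and the ephrin receptor gene Epha7 also held 15 and shared this place. Ranked by density among deserts with 5 or more regions, Klf14-Mkln1 was followed by Adra1d-Erv3 (9 regions, 98.7 per Mb), Tmx1-Frmd6 (10, 63.4 per Mb), Serp2-Lacc1 (14, 52.9 per Mb) and Enc1-Arhgef28 (51.6 per Mb). Adra1d encodes an adrenergic receptor, and the best region of its desert lay at the start of Gm30986, with folds of 8.40, 13.0 and 8.74.

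Most long deserts held a Fos region. Of 72 deserts longer than 2 Mb, 67 held a region and 5 did not. These 5 were picked after their counts were seen. The longest empty desert, of 3676 kb between the protocadherin gene Pcdh7 and G6pd2, had 1 peak in each kainic acid list and no region. Others lay between Adam6a and Zfp386, which holds the immunoglobulin heavy chain variable segments, between Lingo2 and 1700009N14Rik, and between Serpinb8 and Cdh7. Among gene families chosen after the values were seen, deserts bounded by olfactory or vomeronasal receptor genes held a region in 1 of 16 cases, and deserts bounded by a cadherin or protocadherin gene in 23 of 31, against 55.3% of all deserts. These deserts were 233 and 1886 kb long at the median. For Zfp zinc finger genes the number was 19 of 40, for predicted Gm models 53 of 127 and for serpin genes 0 of 3.

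The genes at the edges of the deserts were compared by list. Of 2344 protein-coding genes that bound a desert, 58.3% bounded one with at least 1 desert region. Among adhesion molecules and synapse organisers the number was 49 of 55 (89.1%), among developmental transcription factors 51 of 61 (83.6%), and among ion channels and neurotransmitter receptors 39 of 56 (69.6%). Among axon guidance genes it was 17 of 24 (70.8%), among secreted signals 17 of 26 (65.4%) and among activity-regulated genes 14 of 21 (66.7%). A gene that bounds 2 deserts is counted here if either holds a region. Counted per desert, the share was 76.7% for adhesion molecules, 73.4% for developmental factors and 71.0% for axon guidance genes. It was 62.5% for activity-regulated genes, 58.6% for ion channels and receptors and 83.3% for hippocampal neuron markers. For secreted signals it was 54.3%, below the 55.3% of all deserts. The lists also differed in the size of their deserts, and deserts with a region were the longer ones. Deserts of the adhesion list were 1230 kb long at the median, against 421 kb for all, and held 2.14 regions per Mb, a lower density than the 4.21 of all deserts. The deserts of the activity-regulated list, of 510 kb at the median, held 9.26 per Mb. Those of secreted signals (2.37 per Mb) and axon guidance genes (3.34) were also below the value of all deserts. Developmental factors (5.45), ion channels and receptors (5.17) and hippocampal neuron markers (5.19) were above it. Differences between lists were not tested.

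**Figure D5:**
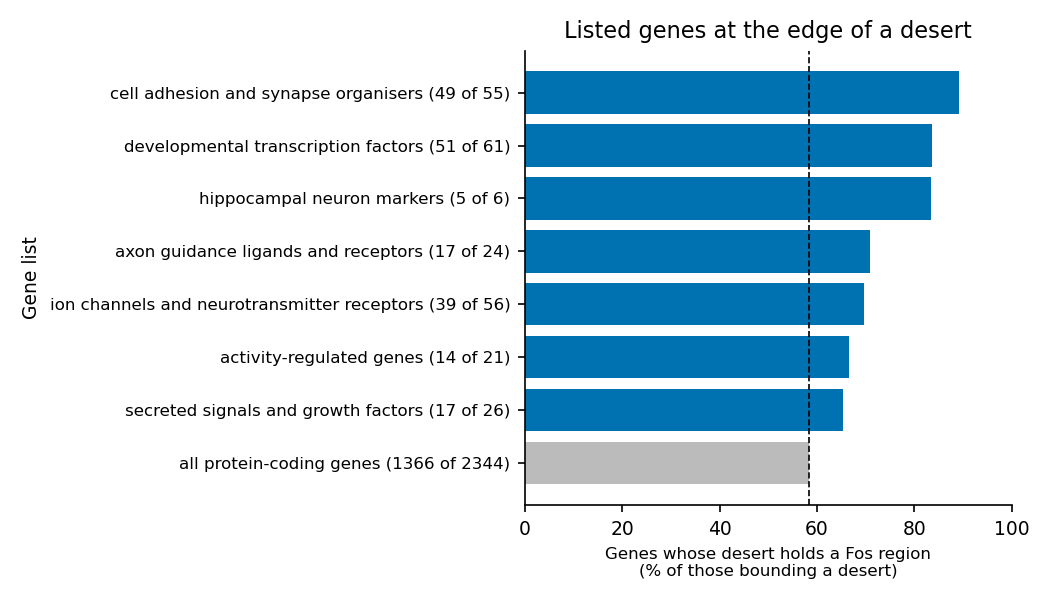
Share of the genes bounding a desert whose desert holds at least 1 Fos region (horizontal axis, %), for lists with 5 or more such genes (blue) and for all protein-coding genes (grey, dashed line at 58.3%). All 7 lists lie above the line, from 65.4% for secreted signals to 89.1% for adhesion molecules. The shares are not adjusted for desert length or for genes that bound 2 deserts. Counted per desert, secreted signals (54.3%) were below all deserts (55.3%) and the other lists above.

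Among adhesion genes, Ncam2, a neural cell adhesion molecule, had 22 regions in its 2 deserts, 13 of them in all 3 lists. Of the 22, 8 had Ncam2 as their nearer bounding gene. The protocadherin genes Pcdh17 and Pcdh20 had 20 and 15, and were the nearer gene of 4 and 8 of these. Among developmental factors the fullest were Zeb2 with 21, Sox9 with 19, and Bcl11a and Bcl11b with 16 each. Sox9, a factor of glia and progenitors, also stands in the astrocyte list, where the gap junction gene Gja1 had 9 regions and the water channel gene Aqp4 none. Among receptors and channels, Kcna4 with 31 was followed by the AMPA receptor genes Gria1 with 14 and Gria2 with 11, the latter tied with the metabotropic receptor gene Grm7. The best region beside Gria1, 431 kb from it, had folds of 9.36, 15.7 and 10.9. Among axon guidance genes, Epha7 had 18 regions, Epha4 14 and the neuropilin gene Nrp1 9, the last tied with Plxna2. Among secreted signals, Cartpt had 7, Npy 6 and Tgfb2 6, and they were the nearer gene of 5, 1 and 1 of these. Every count by gene credits a region to both genes of its desert, whichever is nearer. A desert with regions was thus found beside excitatory receptor, adhesion and guidance genes alike.

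Lists of cell type markers bounded few deserts. Hippocampal neuron markers did so in 6 cases, 5 with a region, led by Prox1, a dentate granule cell factor, with 9 regions, and Calb1 and Man1a had 2 each. Astrocyte markers had 2 of 4, and endothelial markers 2 of 3, namely Emcn with 8 regions and Cdh5 with 4, while Kdr had none. Oligodendrocyte markers had 1 of 2, with 1 region at Pdgfra and none at St18. The single microglial marker, Siglech, had none. Of the liver genes, taken as an unrelated tissue, Apob had 13 regions and Cps1 none. Numbers this small do not separate the lists from the 58.3% of all bounding genes.

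Activity-regulated genes are those induced in neurons by depolarisation, some of them by way of AP-1. The fullest of their deserts was that of Plk2, a kinase gene of synaptic scaling, with 12 regions, 7 in all 3 lists. Its best region had folds of 7.01, 13.0 and 6.58, 233 kb from Plk2. The desert of the nuclear receptor gene Nr4a3 had 10 regions, 3 in all 3 lists, and its best region had folds of 4.97 and 5.97 in replicates 2 and 3 and no peak in replicate 1. Beside Gadd45g, a gene of DNA demethylation and stress, 9 regions included 1 with folds of 10.4, 24.8 and 14.6, 388 kb from Gadd45g and 268 kb from Diras2. The strongest region was thus beside Gadd45g and not in the fullest desert. Deserts of Klf4 and Sgk1 held 9 each and that of Dusp6 7. No desert region lay in those bounded by Bdnf, Egr2, Pcsk1, Penk, Ptgs2, Sv2c and Tac1.

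The desert between Kcne4 and Scg2, encoding a neuropeptide precursor induced by activity, was singled out after its values were seen, because all 7 of its regions were nearer the activity-regulated gene. Other deserts of this list were mixed. In them 5 of 9 regions were nearer Gadd45g and 4 of 7 nearer Dusp6, but 3 of 10 were nearer Nr4a3 and 1 of 7 nearer Inhba (beside Sugct). The 7 regions beside Scg2 lay from 119 to 290 kb from it, over 171 kb, and 5 of the 7 summits were inside the lncRNA gene Gm29536. Their folds were low, with the best region at 5.21 in replicate 1 and 7.02 in replicate 2 and no peak in replicate 3. In the 4 regions in all 3 lists the folds ran from 3.38 to 5.82. No saline peak lay in this desert.

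Many desert summits lay inside non-coding genes. An annotated lncRNA gene covered 520 summits (18.9%, interval 17.4 to 20.4), where the share over all regions was 10.4%. For nearer intergenic regions the share was 19.3%, so the desert share differed little from that of other summits between genes. Of the lncRNA genes, 357 held a desert summit and 12 held 5 or more. After Lncpint with 22 came 5730522E02Rik in the Bcl11a desert with 10 and A330093E20Rik between Kcnn2 and Trim36 with 7. Morrbid, a lncRNA gene that regulates its neighbour Bcl2l11, held 5, as did the microRNA host genes Mir100hg and Mir99ahg. Counting every annotated gene of any kind, 472 desert regions remained more than 100 kb from all of them. Immune receptor gene segments do not count as protein-coding genes here, and 5 desert regions lay within 100 kb of such a segment.

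A few microRNA hairpins lay under desert regions. Of 100 hairpins annotated more than 100 kb from a protein-coding gene, 3 lay under a desert region, and all 3 belonged to the Mir344 family. That family has 13 hairpins in 402 kb of chromosome 7 between Gm51483 and Ndn, an imprinted gene of neurons. The mature sequences from RefSeq on GRCm38.p6 are shown because the hairpins under the regions share their 5p seed. Capitals mark the seed, bases 2 to 8.
mmu-miR-344d-3p: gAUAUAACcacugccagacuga
mmu-miR-344d-1-5p: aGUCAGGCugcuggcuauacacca
mmu-miR-344b-3p: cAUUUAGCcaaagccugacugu
mmu-miR-344b-5p: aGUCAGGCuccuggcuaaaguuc
mmu-miR-344-3p: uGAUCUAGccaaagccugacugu
mmu-miR-344-5p: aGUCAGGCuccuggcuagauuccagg

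The 3 5p forms share the seed GUCAGGC, and the 3 3p forms have different seeds. The region over Mir344, at chr7:61877277-61878370, had folds of 5.52, 7.83 and 6.95 and its summit 157 bp from the hairpin. That over Mir344b, at chr7:61790189-61790954, had folds of 3.36, 7.02 and 3.58 and its summit 60 bp away. The region over Mir344d-1, at chr7:61683167-61683730, overlapped only an end of the hairpin, with its summit 303 bp away, and had folds of 4.40 and 2.62 in replicates 2 and 3 and no peak in replicate 1. Another 2 regions lay in the same desert outside the hairpins. The peak lists do not show whether any of these hairpins is transcribed.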

How the data were processed

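Per the submitters' processing notes, the tools named were Trim Galore 0.6.4, Bowtie2 2.3.4.3, MACS2 and deepTools 3.5.0, and the build was mm10. The peak cutoff and the control library are not given in the sources used here. The authors deposited 1 peak list per library. Per the labels and values, the fold the authors deposited is a ratio on a linear scale of a peak to local background, and the deposited −log10 p and q values and score also belong to 1 library. None is scaled between libraries, so folds were ranked within a list. The lists differ in length, so a rank refers to a different number of peaks in each.

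Regions, distances and ranks were computed in Python 3.11.15 with pandas 2.3.3, numpy 2.4.6 and SciPy 1.17.1, and peaks sharing 1 bp or more were merged. Genes came from a RefSeq table of GRCm38.p6, with 20558 protein-coding genes on chromosomes 1 to 19, predicted models included. Genes assigned to a chromosome without a place on it (333, of which 107 protein-coding) were left out. Merging and distances were tested on simulated data, where 1924 of 1924 planted regions and 4000 of 4000 distances were returned. Intervals are 95% Clopper-Pearson intervals, cover counting error only, and treat regions as independent, which neighbours are not. The numbers of desert peaks per library were compared by a two-sided exact permutation test. Named items were the 12 best desert regions in all 3 lists, the 12 fullest and 5 densest deserts, the 3 best regions of each fullest desert, the top 3 genes per list, regions at the limit, the 5 farthest, and up to 5 with a saline peak. The members and the gene lists were chosen with earlier results of these data known.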

Additional observations from a re-analysis of the deposited data

How the results depend on the processing

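Alternatives covered the distance limit, the gene set, the lists required, the −log10 q threshold and each library in turn. The difference in desert peaks between kainic acid and saline kept its direction under each alternative tried for it. The order of desert and other regions by rank did not keep its direction. By fold the desert mean was 47.8 against 50.3 for all other regions, and by −log10 q it was 50.7 against 49.9. The desert regions numbered 2755, with 1527 at a limit of 200 kb, 472 when all annotated genes bound a desert, 1354 when all 3 lists were required, 1829 and 840 at −log10 q of at least 5 and 10, and 1395 with the 14890 strongest peaks of each list. Without a kainic acid library, when both remaining lists were required, the number was 1408 (without replicate 2) to 2506 (without replicate 1), with 1555 without replicate 3. The share of regions in deserts, 10.3%, was 15.3% at 50 kb, 5.73% at 200 kb, 1.77% with all annotated genes and 11.4% in all 3 lists, and 10.1% to 11.6% without a library. The mean of the median fold ranks was 50.7 by −log10 q and 47.7 to 50.0 without a library. The share in all 3 lists was 45.2% at −log10 q of at least 10. The share with a neighbour within 10 kb was 23.7% and 14.9% at the −log10 q thresholds and 18.6% to 27.8% without a library, and 17.8% and 44.9% for neighbours within 5 and 25 kb.

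Alternatives for flanking genes were chosen after seeing the data. With all 3 lists required, 44.8% of all bounding genes and 68.9% of developmental factors had a desert region. The share of all bounding genes was 51.2% and 35.3% at the −log10 q thresholds of 5 and 10, where at the latter adhesion genes had 67.3% and developmental factors 59.0%. Without a library it was 45.1% to 56.1% for all, 68.9% to 82.0% for developmental factors, 78.2% to 85.5% for adhesion genes and 61.9% to 66.7% for activity-regulated genes, so these 3 lists stayed above all bounding genes under each of these settings. Of 72 counts of regions in the 12 fullest deserts under these alternatives, 47 moved by more than 1.5 times, all to fewer. Without replicate 2, Klf14-Mkln1 held 11 regions, Enc1-Arhgef28 8 and Gm52008-Bcl11b 4, against 22 for Kcna4-Mettl15, and at −log10 q of at least 10 Csnk1g3-Zfp608 held 0.

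The difference in desert peaks per library was 2.79 to 3.49 without a library, at p = 0.1 by the exact permutation test in each case. With the replicate number as a block, an exact sign-flip permutation over the 3 pairs gave a difference of 3.03 at p = 0.25, the smallest it allows; the labels do not say that the numbers pair libraries. The motif share over all desert regions was not run, because no genome of the build was used here. With TGANTCA, 66.7% of the 18 desert start windows and 7.84% of all start windows held a match, and 38.9% of the 18 stretches around the summits held TGACTCA or TGAGTCA.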
